A study of Mus musculus with 6 samples.

Results

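A total of 101 genes of distal mouse chromosome 14 were examined in embryonic stem (ES) cells, out of 22602 genes listed and 11595 with a mean level of at least 1 RPKM over the 6 libraries (RPKM being the reads of a gene per kilobase of its cDNA, scaled to a library of 1000000 reads). They form 2 neighbouring blocks. The first, called the raised block here, holds 80 genes from Rhobtb2 (mm9, chromosome 14, from position 70184797) to Spry2 (up to position 106296036), and the second, called the lowered block, holds 21 genes from Trim52 (from position 106505415) to Tmtc4, the last gene of the chromosome to reach 1 RPKM. The blocks had been found as runs of genes that differed between the clones and the control cultures in this same table, so the members and the boundary were chosen by their measured log2 ratios of clones to controls, and each clone-to-control value below is a description without a test. 4 genes of the same stretches, Klf5, Tsc22d1, Zic2 and Zic5, were left out of the member lists and are given separately.

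The libraries came from 2 groups of mouse ES cells grown with leukemia inhibitory factor. The Sim2 group was 1 culture from each of 3 clones (A6, B8, C4). Their transgene is mouse Sim2 with a Flag tag, followed by an IRES and the Venus reporter at the ROSA26 locus, under the hCMV*-1 promoter that the transactivator tTA switches on when tetracycline is taken away. The EB3 group was 3 cultures, 0, 1 and 2, of the single parental line EBRTcH3, which has no Sim2-Flag transgene. All 6 cultures spent 26 h in medium without tetracycline before messenger RNA was sequenced, so clonal origin and Sim2 induction cannot be told apart in this comparison. In addition, a lower share of cells expressing a gene and less RNA per cell cannot be told apart in such bulk samples.

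SIM2 is a transcription factor of the bHLH-PAS family that dimerizes with ARNT. ES cells keep a pluripotent state through factors such as OCT4, SOX2 and NANOG, and transcribe many genes of metabolism, transcription and cell division at high levels. Neighbouring genes of a chromosome often have unrelated functions, and the members range from housekeeping enzymes to developmental regulators that are hardly transcribed in ES cells.

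The libraries held 25095861 to 28269340 reads each. Sim2 was at 196, 212 and 168 RPKM in A6, B8 and C4 and at 0.13, 0.092 and 0.104 RPKM in EB3-0, EB3-1 and EB3-2, as the labels require. The 7 ES cell markers all had mean levels of at least 242 RPKM. All 6 primitive endoderm markers and all 3 trophoblast markers in the table stayed under 1 RPKM, as did Postn, Col1a1, Col1a2 and Col3a1 among the 5 fibroblast markers (Postn was listed at 0 in every library), whereas Thy1 was at a mean of 11.9 RPKM. The summed level was 2.92 to 3.28 RPKM in the clones and 1.71 to 2.30 in EB3 for the endoderm markers, and 0.634 to 0.878 against 0.436 to 0.62 for the trophoblast markers. Of the 4 mesoderm markers, T and Mixl1 stayed under 1 RPKM, and Kdr was the highest at a mean of 1.38 RPKM. The summed level of the mesoderm markers was 3.20 to 4.10 RPKM in the clones and 2.65 to 3.27 in EB3. The summed level of the 3 neural markers in the table, mostly Tubb3, was 76.0 to 97.7 RPKM in the clones and 119 to 137 RPKM in EB3, and the part of these markers in the results was not tested. EB3-1 and EB3-2 were nearly alike. Over 10969 genes their reads differed by 1.42 times the variance that sampling of fragments gives, against 6.51 to 41.4 times for the other pairs within a group, so the spread of the EB3 group is largely the distance of EB3-0 from the other two.

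Levels of each gene were compared as log2 ratios, that is, log2(RPKM + 0.5) of a clone minus the mean of the 3 EB3 cultures, centred in each clone on the median of all 11595 genes. A ratio given with an SD is the mean and SD over the 3 clones. Over the 80 genes of the raised block the median ratios of A6, B8 and C4 were 0.35, 0.43 and 0.46, or 0.41 ± 0.06 (SD, n = 3). The median of the members' mean ratios was 0.39, a 1.31-fold difference. 74 of the 80 genes were higher in the clones on average, against 49.7% of all tested genes, and the quartiles of the members' mean ratios were 0.18 and 0.57.

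The lowered block showed the opposite picture with a larger size. The median ratios of A6, B8 and C4 were -0.69, -0.54 and -0.53, or -0.59 ± 0.09 (SD, n = 3). The median of the members' mean ratios was -0.60, which is 0.661 times the EB3 level, and 20 of 21 members were lower on average. With all genes of the stretch that had a read, 36 in number and with no filter on low values, the median was -0.30.

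The same measure was taken among the EB3 cultures as a background, each culture against the mean of the other two. For the raised block it gave medians of -0.11, 0.03 and 0.05 for EB3-0, EB3-1 and EB3-2. For the lowered block the medians were -0.21, 0.08 and 0.07. EB3-0 thus stood below the other two in both blocks, by less than the shift of the clones.

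**Figure D1:**
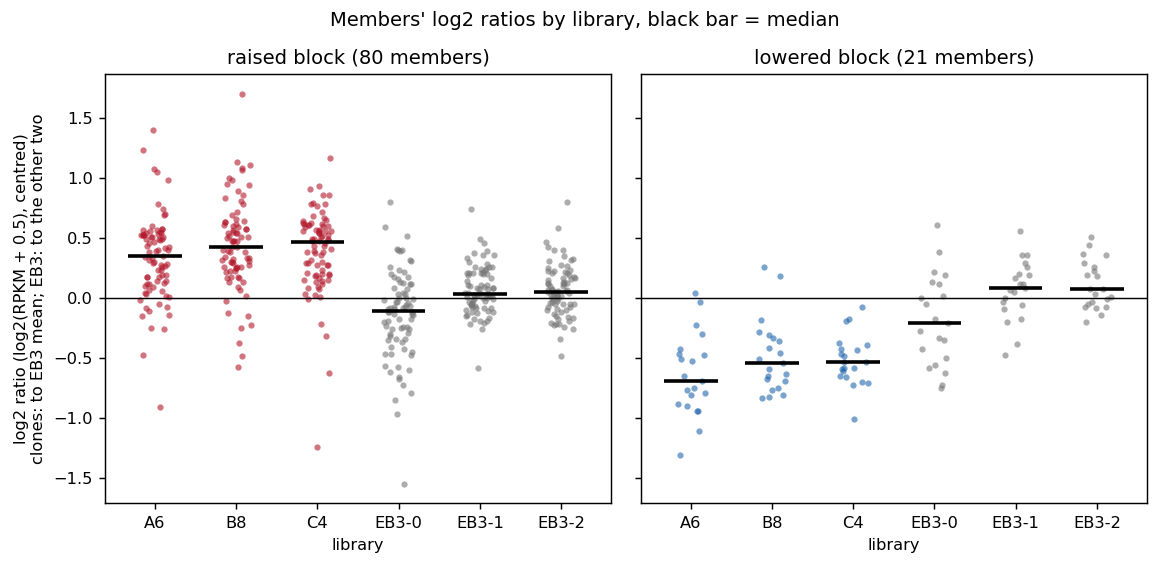
Log2 ratio of every member in each library (x axis), on the log2(RPKM + 0.5) scale and centred on all tested genes, for the 80 genes of the raised block and the 21 of the lowered block. Coloured points are clones against the EB3 mean, grey points are EB3 cultures against the mean of the other two, and black bars are medians. The clone medians lie at 0.35 to 0.46 and at -0.69 to -0.53, and the EB3 medians between -0.21 and 0.08.

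The reads recovered from the table show the same shift without any transformation. The raised block took 6023, 6287 and 6396 reads per 1000000 in A6, B8 and C4 and 4506, 4897 and 4879 in EB3-0, EB3-1 and EB3-2. The lowered block took 687, 725 and 703 reads per 1000000 in the clones and 1042, 1136 and 1142 in EB3. Its member Ipo5 alone held 8863 to 16407 reads in a library, where the whole block held 17237 to 30368. The total of the lowered block therefore depends largely on that gene. In both blocks the 3 clones lay together on one side of the 3 EB3 cultures.

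By single genes, 46 of the 80 members of the raised block had all 3 clones above all 3 EB3 cultures, where 12.7% of all tested genes did. Of the 21 members of the lowered block, 17 had all clones below all EB3 cultures, where 13.4% of tested genes did. The moderated test of limma, fitted on all tested genes with Benjamini-Hochberg adjustment, called 7 members of the raised block higher against 0.345% of all tested genes, and 3 members of the lowered block lower against 0.354%. The first were 2610301G19Rik (now Ccar2), Pdlim2, Sorbs3, Fam160b2, Itm2b, Sucla2 and Zc3h13, and the second were Ipo5, Tm9sf2 and A2ld1 (now Ggact). As the contrast chose the members, nothing is drawn from these counts. They also changed when a library was left out, as did the calls over the whole table. With all libraries, 40 genes of the whole table were called higher and 41 lower. Without EB3-0 the same test called 24 and 10 members, among 294 genes called higher and 400 called lower. Without B8 it called 1 and 1, among 7 and 10 genes. Leaving out A6, C4, EB3-1 or EB3-2 left 0 members called in both blocks. Only 4 to 6 genes of the whole table were then called higher and 2 to 14 lower. In these fits 35 to 42 and 11 to 14 members passed an unadjusted p of 0.05. The share of all tested genes that did so was not taken, so nothing is drawn from these numbers either.

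**Figure D2:**
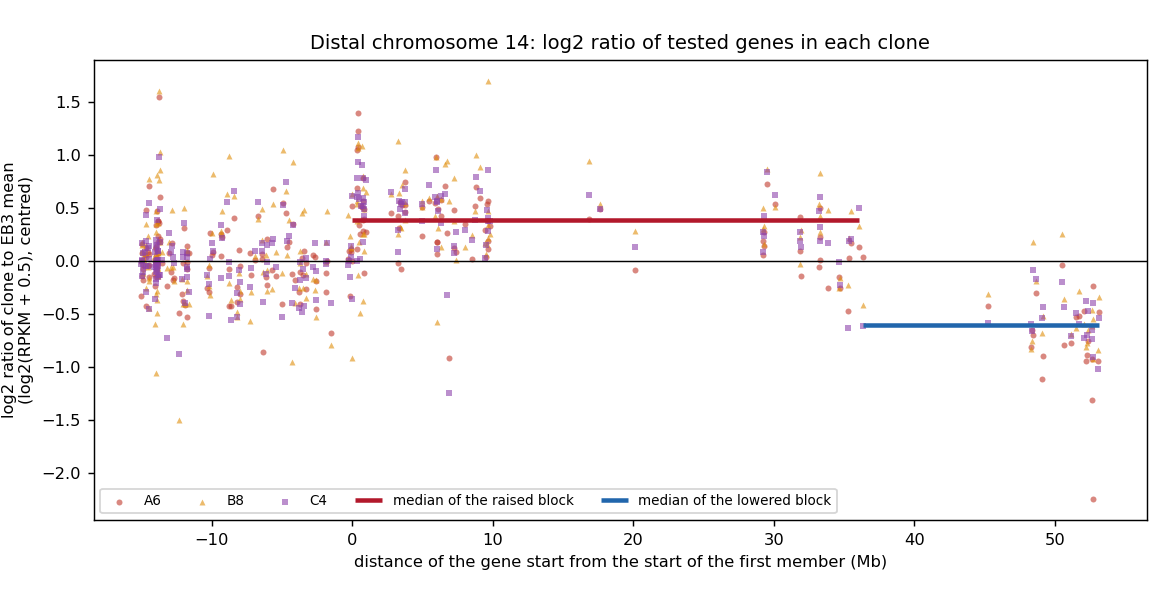
Log2 ratio of each clone to the EB3 mean for the tested genes of chromosome 14, from 15 Mb before the first member on. The x axis is the distance in Mb from the start of that member. Horizontal bars are the block medians of 0.39 and -0.60. Genes before 0 are the nearest part of the chromosome before the block. The median of all 304 tested genes before the block, most of them not plotted, was -0.01. The genes left out of the member lists are plotted too.

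At the borders of the blocks the step differed from gene to gene. The 304 tested genes of chromosome 14 before the raised block had a median ratio of -0.01, and 140 of them were higher. Just outside the first member, Tnfrsf10b, a TRAIL receptor, was at 12.1, 6.07 and 9.12 RPKM in A6, B8 and C4 and at 11.8, 11.5 and 12.6 in EB3 (ratio -0.42 ± 0.46). Chmp7, a subunit of the ESCRT-III membrane-remodelling machinery, was at 41.2, 41.4 and 41.0 RPKM against 38.2, 36.6 and 37.9 (ratio 0.14 ± 0.02). The groups did not overlap for Chmp7, although the step was small.

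Just inside, Rhobtb2, an adaptor of ubiquitin ligases, was at 8.67, 9.23 and 9.05 RPKM in the clones and at 5.64, 5.96 and 5.88 in EB3 (ratio 0.59 ± 0.06). Bin3, a BAR-domain protein of the cytoskeleton, was next to it at 9.58, 11.4 and 8.60 against 8.34, 8.81 and 8.92, with overlapping groups (ratio 0.17). Of these 2 neighbours, Rhobtb2 had every clone above every EB3 culture, and C4 lay within the EB3 range for Bin3.

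At the inner border, Spry2, an inhibitor of receptor tyrosine kinase signalling, was at 111, 125 and 140 RPKM in the clones and 96.5, 101 and 102 in EB3 (ratio 0.33 ± 0.18). Ndfip2, an adaptor of NEDD4-type ubiquitin ligases, was at 12.98, 15.9 and 13.03 RPKM in the clones and 10.9, 11.4 and 11.8 in EB3 (ratio 0.29). Trim52, a ubiquitin ligase whose start lies 209 kb beyond Spry2, was at 2.69, 1.79 and 1.49 RPKM against 1.94, 2.66 and 3.27, so that A6 was within the EB3 range (ratio -0.33 ± 0.33). The next member, Mir17hg, starts 8.94 Mb further on, so Trim52 was the only member in that interval. No tested gene of chromosome 14 lay beyond Tmtc4, which was at 1.20, 1.34 and 1.10 RPKM in the clones and 1.78, 1.97 and 1.76 in EB3 (ratio -0.45).

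The shift was not even along the raised block. The members fell into 12 runs when split at gaps of over 1 Mb, 8 of them in the raised block. The 19 genes from Rhobtb2 to Dok2, all within 0.994 Mb, had a median ratio of 0.53, and 18 of them were higher. The 10 genes from Fndc3a to Sucla2 had a median of 0.51, all 10 higher, and the 29 genes from Esd to Sugt1 a median of 0.39, 27 of them higher. Diap3 (Diaph3), a formin that builds actin filaments, and Tdrd3, a tudor-domain protein, lie far from their neighbours and had ratios of 0.66 and 0.51, with no overlap of groups.

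The most distal part of the raised block was the least shifted. The 19 genes from Mzt1 to Spry2 had a median ratio of 0.22, with 0.10 in A6, 0.30 in B8 and 0.21 in C4. For 7 of them every clone lay above every EB3 culture, against 12.7% of all tested genes. For its last 11 genes, Kctd12 to Spry2, the median was 0.16 and fell to -0.01 when EB3-0 was left out. Without EB3-0, 12 of the 19 genes were higher, against 56 of the 58 genes from Rhobtb2 to Sugt1, whose median was 0.47 with all libraries and 0.45 without EB3-0. In the lowered block, the 6 genes from Tgds to Dnajc3 had a median of -0.65 and the 13 from Mbnl2 to Tmtc4 a median of -0.60, which changed to -0.69 and -0.58 without EB3-0.

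**Figure D3:**
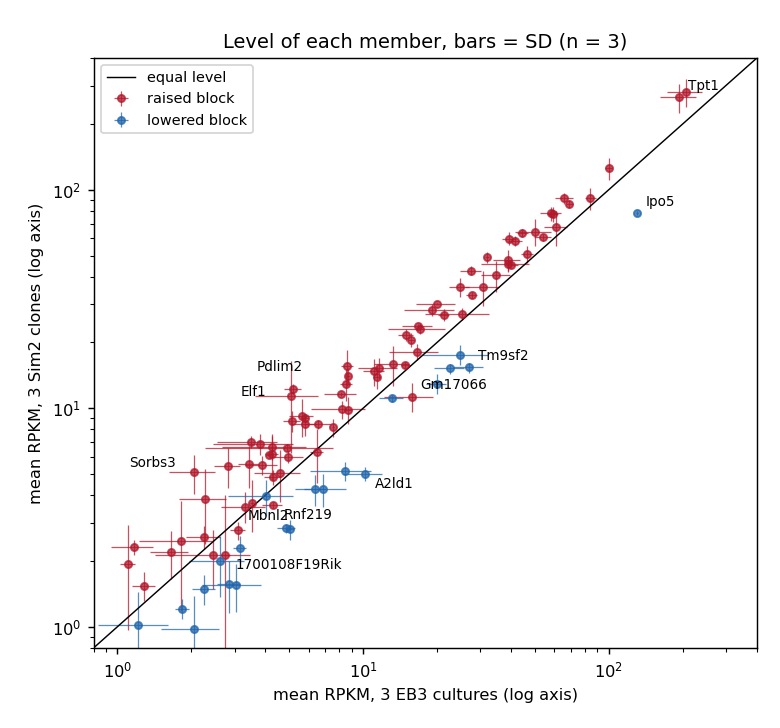
Mean RPKM of each member in the 3 Sim2 clones (y axis) and the 3 EB3 cultures (x axis), both on log axes, with bars for the SD (n = 3) and a line of equal levels. Red points are the raised block and blue points the lowered block. Pdlim2, Sorbs3 and Elf1 lie farthest above the line, 1700108F19Rik and Gm17066 lie below it among the red points, and Mbnl2 lies on it among the blue ones.

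Within the raised block, the largest ratios belonged to a pair of neighbours. Pdlim2, a PDZ-LIM protein of the actin cytoskeleton, was at 12.9, 11.7 and 12.1 RPKM in A6, B8 and C4 and at 5.15, 4.77 and 5.62 in EB3, a 2.36-fold difference of means (ratio 1.17 ± 0.06). Sorbs3, which encodes the adhesion protein vinexin and lies within 3 kb of Pdlim2, was at 6.22, 4.75 and 4.27 RPKM against 2.55, 1.80 and 1.80 (ratio 1.13 ± 0.24). For both, every clone lay above every EB3 culture, with a gap wider than the range within either group for Pdlim2 and slightly narrower than the range of the clones for Sorbs3. They stood 2.67 and 2.55 robust SDs above the block median, where a robust SD is the median absolute deviation of the members' ratios scaled to match an SD, so no member passed the limit of 3 robust SDs on the high side.

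Elf1, a transcription factor of the ETS family, followed with 7.66, 17.1 and 9.24 RPKM in the clones and 3.39, 5.99 and 5.91 in EB3 (ratio 1.04 ± 0.59). Its groups did not overlap, but B8 was far above the other clones and EB3-0 below the other cultures. Slc25a30, a mitochondrial carrier, was at 7.33, 7.21 and 6.51 RPKM against 2.38, 4.08 and 4.04 (ratio 0.94). A stretch of 1183 bases on chromosome 3 is 93.4% identical to Elf1, so the counting could share its reads with that copy.

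6 members of the raised block lay on the other side, lower in the clones on average. 1700108F19Rik, an uncharacterized transcript, was at 1.24, 4.29 and 0.856 RPKM in A6, B8 and C4 and at 2.62, 2.89 and 2.74 in EB3 (ratio -0.53 ± 0.97). It was the only member of either block more than 3 robust SDs from its block median, at -3.13, and the clones disagreed: B8 was above all EB3 cultures and A6 and C4 below all of them. It rested on few reads, 21 in the lowest library and 96 in the highest.

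Gm17066 was at 11.1, 13.1 and 9.70 RPKM in the clones and at 11.8, 18.7 and 16.8 in EB3 (ratio -0.44). All 3 clones lay below EB3-1 and EB3-2, and only B8 above EB3-0. This predicted gene overlaps Rbm26 on the same strand, an RNA-binding protein gene at 25.2, 28.2 and 27.7 RPKM against 16.7, 30.4 and 28.5 (ratio 0.15, and -0.11 without EB3-0), so the reads of the pair may be split between them.

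Rnf219 (now Obi1), a ubiquitin ligase of replication origins, was at 3.55, 3.76 and 3.54 RPKM in the clones and at 3.99, 4.75 and 4.11 in EB3 (ratio -0.21 ± 0.05). It was the single member of the raised block with every clone below every EB3 culture, and its clones were nearly equal. Its neighbour Pou4f1, a POU-domain transcription factor of sensory neurons, was at 2.77, 2.504 and 3.02 RPKM against 2.93, 3.34 and 3.01, with overlap by C4 (ratio -0.14). These 2 genes and Gm17066 all lie within the last 11 genes of the block.

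The other two were near 0 and turned with a library. Piwil2, a PIWI protein of the germline, was at 7.93, 4.45 and 6.502 RPKM in the clones and 6.74, 6.03 and 6.68 in EB3 (ratio -0.07), and its ratio was 0.14 without B8. Snora31, a small nucleolar RNA inside Tpt1, had 4 to 11 reads in a library, a ratio of -0.13, and 0.14 without EB3-0. In the lowered block, Mbnl2, a regulator of alternative splicing, was the single member not lower on average, at 3.83, 4.73 and 3.29 RPKM against 2.64, 4.70 and 4.70 (ratio 0.01). This ratio turned to -0.23 without EB3-0, to -0.12 without B8 and to -0.04 with the length trend removed.

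**Figure D4:**
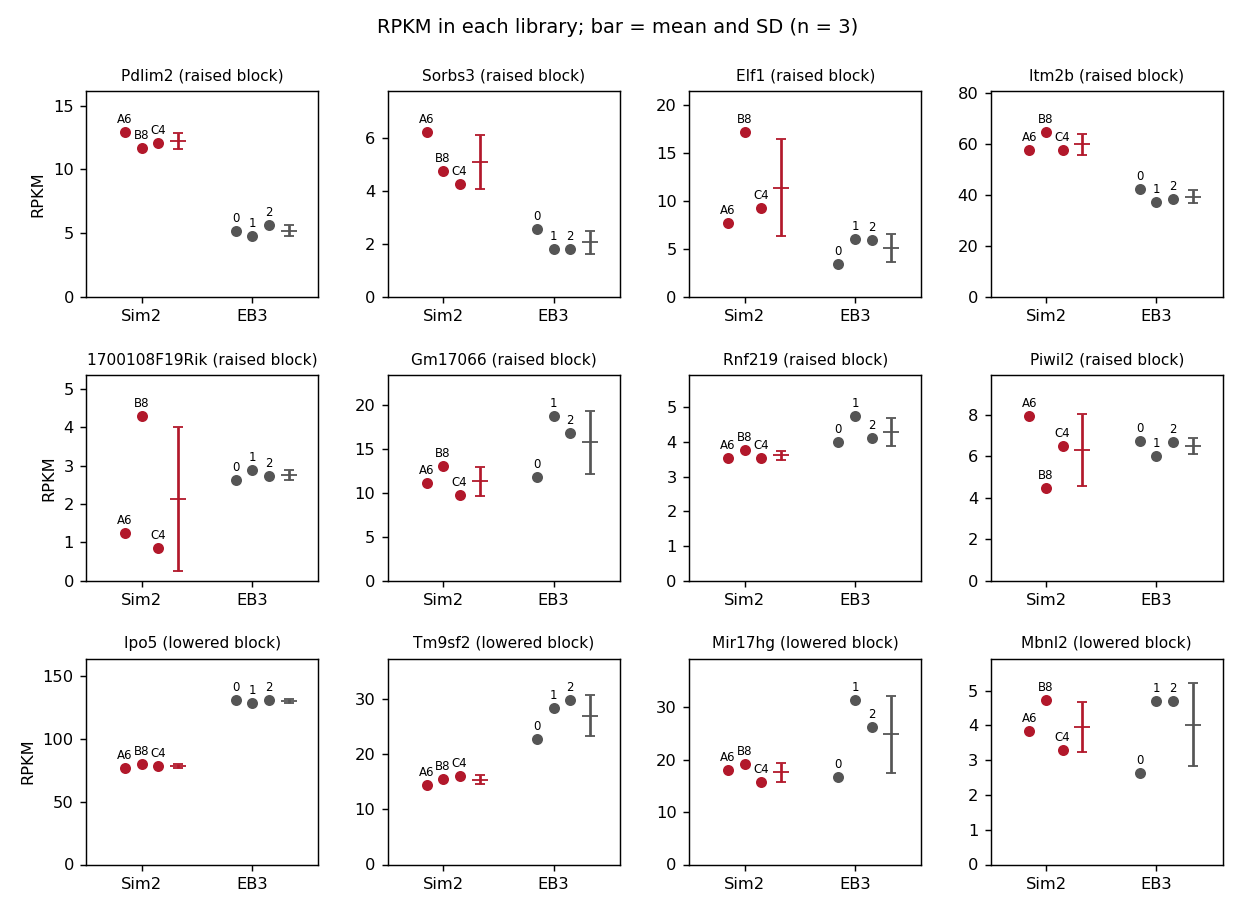
RPKM of 12 members in each library (points labelled by clone or EB3 culture number), with the mean and SD (n = 3) of each group beside them and axes that start at 0. Pdlim2, Sorbs3, Elf1 and Itm2b show clones above EB3, Ipo5 and Tm9sf2 show clones below EB3, and the groups overlap for 1700108F19Rik, Gm17066, Piwil2, Mir17hg and Mbnl2.

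The most abundant members of the raised block were also higher on average. Tpt1, the translationally controlled tumour protein gene, was at 220, 294 and 281 RPKM in the clones and at 232, 176 and 174 in EB3 (ratio 0.45), and A6 lay below EB3-0. Tpt1p is annotated over the same span on the other strand and gave nearly the same values (ratio 0.45), so the pair counts in effect as 1 measurement. Tpt1 has 7 other matches of at least 200 bases and 90% identity in the genome, so its level is uncertain. Gm5088, a single-exon predicted gene at 80.4, 102 and 91.5 RPKM against 89.4, 80.7 and 82.9 (ratio 0.11), has 28 other matches of at least 200 bases and 90% identity in the genome and its level is uncertain.

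Of the members of the raised block on the transcription and RNA list, 14 of 16 were higher, with a median ratio of 0.40. Med4, a subunit of the Mediator complex, was at 92.1, 86.0 and 95.9 RPKM in the clones and at 71.5, 66.1 and 60.3 in EB3 (ratio 0.47 ± 0.08). Gtf2f2, a subunit of the general factor TFIIF, was at 82.7, 71.7 and 79.6 against 64.6, 56.0 and 54.1 (ratio 0.42). Neither gene had overlapping groups. A sequence of 905 bases on chromosome X is 95.9% identical to Med4, so the counting could share its reads with that copy. Zc3h13, a member of the complex that writes N6-methyladenosine into RNA, was at 41.4, 41.7 and 45.0 RPKM in the clones and at 24.5, 28.7 and 29.5 in EB3 (ratio 0.63).

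All 11 genes of the cell cycle and cytoskeleton list in the raised block were higher, with a median of 0.32. Sugt1, a cochaperone needed at kinetochores, was at 88.0, 82.4 and 88.7 RPKM in the clones and 71.5, 68.3 and 67.6 in EB3 (ratio 0.32 ± 0.06). Epb4.9 (now Dmtn), the actin-bundling protein dematin, was at 79.0, 70.5 and 82.3 against 62.5, 57.3 and 57.7 (ratio 0.38). Rb1, the retinoblastoma tumour suppressor that restrains entry into S phase, was at 5.99, 4.93 and 5.55 RPKM against 3.26, 4.43 and 3.97 (ratio 0.46). Mzt1, a component of the gamma-tubulin ring complex, had overlapping groups, at 32.1, 43.3 and 32.0 RPKM against 25.2, 33.8 and 33.4 (ratio 0.22, and 0.07 without B8 and 0.09 without EB3-0). For the other three, every clone exceeded every EB3 culture. A sequence of 2265 bases on chromosome 18 is 93.4% identical to Mzt1, so the level of Mzt1 is uncertain.

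Members of the raised block on the protein turnover and trafficking list were higher in 14 of 15 cases, with a median of 0.32. Itm2b, a transmembrane precursor protein, was at 57.5, 64.5 and 57.3 RPKM in the clones and 42.1, 37.2 and 38.5 in EB3 (ratio 0.60 ± 0.10). Uchl3, a ubiquitin hydrolase, was at 58.3, 62.6 and 60.9 against 59.1, 51.3 and 51.5, with A6 below EB3-0 (ratio 0.17). Itm2b therefore had groups far apart and Uchl3 groups that met.

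All 12 members of the raised block on the metabolism and transport list were higher in every clone, with a median of 0.43. Sucla2, a subunit of the succinyl-CoA ligase of the citric acid cycle, was at 65.0, 64.9 and 60.4 RPKM in the clones and 46.9, 44.5 and 42.3 in EB3 (ratio 0.51 ± 0.05). Slc39a14, the zinc and iron transporter ZIP14, was at 63.6, 55.7 and 73.7 against 40.4, 54.9 and 54.5 (ratio 0.37, and 0.23 without EB3-0), and Enox1, an electron transfer protein of the cell surface, was only slightly higher at 50.0, 46.8 and 55.6 against 44.1, 46.4 and 49.4 (ratio 0.12, and 0.05 without C4). The groups overlapped for Enox1 alone of these 3.

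The 7 members of the raised block on the signalling and cell surface list were all higher on average, with a median of 0.33. For 3 of them every clone lay above every EB3 culture, against 12.7% of all tested genes. Fgf17, a fibroblast growth factor, was at 56.8, 64.6 and 81.1 RPKM in the clones and at 68.7, 56.2 and 58.4 in EB3 (ratio 0.14 ± 0.27), and its ratio was -0.01 without C4. Lpar6, a lysophosphatidic acid receptor whose single exon lies inside Rb1 on the other strand, was at 12.5, 16.4 and 19.1 against 10.97, 15.2 and 13.5 (ratio 0.26, and 0.12 without C4, 0.14 without EB3-0 and 0.43 without A6). The clones of both genes spread over more than the EB3 range.

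The widest disagreement between clones in the raised block after 1700108F19Rik was seen for Serp2 and Ppp3cc. Serp2, a stress-associated protein of the endoplasmic reticulum, was at 2.26, 3.84 and 1.30 RPKM in A6, B8 and C4 against 2.48, 1.66 and 1.32 in EB3 (ratio 0.30, and -0.03 without B8). Ppp3cc, a catalytic subunit of calcineurin, was at 2.90, 0.956 and 1.96 against 1.13, 1.02 and 1.16 (ratio 0.53, 0.25 without A6 and 0.86 without B8), with B8 below all EB3 cultures. Over the 80 members, B8 was the highest of the clones for 39 and A6 the lowest for 42, and the median range between clones was 0.28.

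In the lowered block, Ipo5 had the highest level and the tightest values. This importin, which carries proteins into the nucleus, was at 76.9, 79.9 and 78.4 RPKM in A6, B8 and C4 and at 131, 128 and 131 in EB3, 0.603 times the EB3 mean (ratio -0.72 ± 0.04). The SD within each group was under 2 RPKM for a difference of over 50 RPKM. A sequence of 3364 bases at 93.3% identity lies on chromosome X. Tm9sf2, a membrane protein of the endosome and Golgi, was at 14.5, 15.5 and 16.1 RPKM against 22.8, 28.5 and 29.9 (ratio -0.78 ± 0.09). Stk24, a Ste20-like kinase, was at 15.7, 14.3 and 15.7 against 19.2, 25.5 and 23.3 (ratio -0.55). None of these 3 genes had overlapping groups. A sequence of 612 bases on chromosome 1 is 94.6% identical to Tm9sf2.

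The largest ratio of the lowered block was that of A2ld1, an enzyme that breaks down gamma-glutamylamines. It was at 5.02, 5.36 and 4.66 RPKM in the clones and at 12.1, 8.35 and 10.01 in EB3, 0.494 times the EB3 mean (ratio -0.93 ± 0.09). 2610035F20Rik, an uncharacterized transcript, was at 0.52, 1.32 and 1.08 RPKM against 1.43, 2.25 and 2.47 (ratio -0.81), and A6 was far below the other clones. Sox21, an SRY-box repressor of neural progenitors, was at 0.556, 1.41 and 1.08 against 0.888, 1.12 and 1.64 (ratio -0.20, and 0.05 without A6), so only A6 lay below EB3. The 5 members of this block on the metabolism and transport list were all lower in every clone, with a median of -0.63. Among them are Tgds, Pcca, the alpha subunit of propionyl-CoA carboxylase, and the drug and nucleotide exporter Abcc4. For all 5 every clone lay below every EB3 culture, against 13.4% of all tested genes.

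The other groups of the lowered block were small. All 5 members on the list of protein turnover and trafficking (median -0.61), all 4 on that of the cell cycle and cytoskeleton (median -0.54) and both on that of signalling and cell surface (median -0.57) were lower. Of the 2 members on the transcription and RNA list, Sox21 was lower and Mbnl2 was not. Dnajc3, a cochaperone of the unfolded protein response, was at 3.43, 4.56 and 4.81 RPKM in the clones and 5.03, 7.82 and 7.82 in EB3 (ratio -0.61).

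Mir17hg, the host transcript of the miR-17-92 cluster, was the third most abundant member of the lowered block. It was at 17.9, 19.2 and 15.6 RPKM in A6, B8 and C4 and at 16.8, 31.4 and 26.2 in EB3 (ratio -0.44 ± 0.14). EB3-0 fell within the range of the clones, while EB3-1 and EB3-2 were well above it, and the ratio was -0.68 without EB3-0, -0.25 without EB3-1 and -0.31 with EB3-1 and EB3-2 averaged. RNA of this kind measures the host transcript and not the mature miRNAs. The mature sequences that the host encodes are shown because they are the known products of this member. They were taken from RefSeq, 5′ to 3′, with the seed (bases 2 to 8) in capitals.
mmu-miR-17-5p: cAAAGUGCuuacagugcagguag
mmu-miR-20a-5p: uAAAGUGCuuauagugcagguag
mmu-miR-18a-5p: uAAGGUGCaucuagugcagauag
mmu-miR-19a-3p: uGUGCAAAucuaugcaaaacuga
mmu-miR-19b-3p: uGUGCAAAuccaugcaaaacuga
mmu-miR-92a-3p: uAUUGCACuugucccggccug
These 6 miRNAs hold 4 different seeds: miR-17-5p and miR-20a-5p share one, and miR-19a-3p and miR-19b-3p share another.

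The 4 genes left out of the member lists lay in the same direction as their block. Tsc22d1, a leucine zipper regulator of transforming growth factor signalling, was at 120, 137 and 112 RPKM in the clones and 72.3, 72.2 and 73.3 in EB3 (ratio 0.75). Klf5, a Krüppel-like factor of the ES cell state, was at 146, 160 and 155 against 68.5, 97.97 and 99.6 (ratio 0.81). Both were above the median of the raised block, by 1.247 and 1.45 robust SDs.

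The other two belong to a divergent pair of zinc finger genes of neural development. Zic2 was at 2.22, 6.21 and 6.22 RPKM in A6, B8 and C4 against 12.4, 12.3 and 12.1 (ratio -1.36), and Zic5 at 1.99, 2.54 and 2.27 against 3.52, 4.27 and 4.84 (ratio -0.76). The ratio of Zic2 was below that of every member of the lowered block, and A6 was lower than the other clones.

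Genes under 1 RPKM did not enter the rule. The raised stretch held 44 of them, 24 with at least 1 read. Together these took 19.8, 24.4 and 19.7 reads per 1000000 in the clones and 11.7, 14.7 and 12.8 in EB3, a 1.63-fold difference. The groups did not overlap. Tbc1d4 and Bmp1 held the most reads, and without this pair the difference was 1.33-fold. Gm6994 and Kctd4 overlap members, and without them it was 1.68-fold. Among them, Tbc1d4, a Rab regulator of glucose transport, was at 0.888, 1.20 and 0.661 RPKM against 0.265, 0.439 and 0.421, and Lcp1, the actin-bundling protein L-plastin, at 0.806, 0.46 and 0.696 against 0.188, 0.423 and 0.393. The clones were all higher for both genes. Kctd4, at 0.238, 0.167 and 0.446 RPKM against 0.17, 0.384 and 0.318, and Gfra2, a co-receptor of glial growth factors, at 0.506, 0.93 and 1.02 against 0.847, 0.67 and 0.786, had overlapping groups, as had Pcdh8, a protocadherin, at 0.239, 0.494 and 0.415 against 0.256, 0.355 and 0.22.

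The lowered stretch held 24 genes under 1 RPKM, 15 with at least 1 read. They took 13.5, 14.6 and 15.1 reads per 1000000 in the clones and 15.8, 15.3 and 13.9 in EB3, so these groups overlapped. Slitrk5 and Farp1 held the most reads. Without this pair the rest took 5.70, 4.81 and 5.70 against 8.02, 6.99 and 5.94, or 0.77 times the EB3 level. The groups then did not overlap, by the small margin of 5.70 against 5.94. Gpr18 and Gpr183 overlap a member, and without them the ratio was 0.96. Uggt2, a glucosyltransferase of glycoprotein folding control, was at 0.067, 0.042 and 0.054 RPKM in the clones and 0.18, 0.212 and 0.141 in EB3. Its reads were 11, 7 and 10 against 32, 37 and 24, and the separation without Slitrk5 and Farp1 depends on this gene. Slitrk5, a neuronal membrane protein that lies between Trim52 and Mir17hg, was the other way, at 1.10, 1.07 and 1.22 against 0.709, 0.778 and 0.893. These 2 genes had no overlap between groups, and in opposite directions. Farp1, Slc15a1 and A330035P11Rik had overlapping groups and were slightly lower on average (log2 ratios of mean levels -0.23, -0.07 and -0.19).

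EB3-0 was compared with the other cultures because members with long cDNAs were lower in it. It was the lowest EB3 culture for 52 of the 80 members of the raised block and the highest for 22. In the lowered block it was the lowest for 12 of the 21 and the highest for 6. The shares over all tested genes were not counted, and EB3-1 and EB3-2 were nearly alike, so nothing is drawn from these counts. For the 22 raised members with a cDNA of at least 4000 bases, the median of EB3-0 against the other two was -0.39, and their clone ratio was 0.52 with all cultures and 0.34 without EB3-0. Klf12, a Krüppel-like repressor, was the extreme case, at 6.59, 6.37 and 6.86 RPKM in the clones and 1.86, 6.35 and 6.505 in EB3-0, EB3-1 and EB3-2. Its ratio was 0.56, and 0.05 without EB3-0. The 25 raised members with cDNAs under 2000 bases went the other way, from 0.39 to 0.50.

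Over all members of the raised block, the median was 0.37 without EB3-0, and 71 of the 80 were still higher. All 21 members of the lowered block were lower without it. With the trend of each library with cDNA length removed, the block medians were 0.38 and -0.58.

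**Figure D5:**
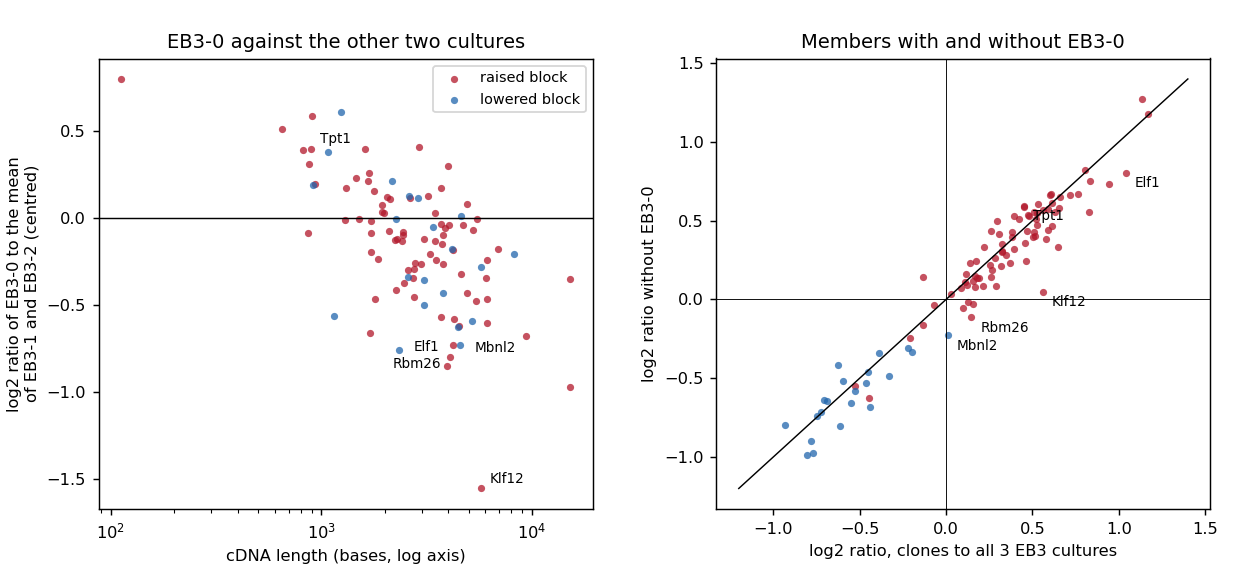
Left, log2 ratio of EB3-0 to the mean of EB3-1 and EB3-2 for each member (y axis) by cDNA length in bases (x axis, log). Right, each member's clone ratio without EB3-0 (y axis) against that with all cultures (x axis), with a line of equality. Klf12, with EB3-0 far below the others, falls from 0.56 to 0.05, and most members stay near the line.

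Other features of the members were also described. The median cDNA length was 2770 bases in the raised block and 3062 in the lowered block, against 2732 for all tested genes, and the median GC content of transcripts was 46.5% and 48.6% against 50.8%. Among genes past the limit of 1 RPKM that the rule sets, the median level was 11.7 RPKM in the raised block and 3.98 RPKM in the lowered block, against 12.8. In the lowered block 11 of 21 members were under 5 RPKM, and in the raised block 19 of 80.

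A list of genes nearest to SIM2-bound regions, made from chromatin immunoprecipitation in the same clones, held 17 members of the raised block (21.3%) and 1 of the lowered block (4.76%), against 10.1% of all tested genes. The median ratio of the 17 was 0.45 and of the other 63 members 0.38. Every clone lay above every EB3 culture for 10 of the 17 and for 36 of the other 63, against 12.7% of all tested genes. A link between the list and the ratios was not tested. Dok2, an adaptor downstream of tyrosine kinases, was at 10.5, 13.6 and 14.6 RPKM in the clones and 8.45, 9.02 and 8.10 in EB3. Xpo7, a nuclear transport receptor, was at 23.7, 23.4 and 24.4 against 14.03, 18.4 and 17.7, and Fndc3a, a fibronectin type III domain protein, at 26.1, 29.0 and 29.2 against 14.03, 22.2 and 20.9. In these 3 genes every clone exceeded every EB3 culture. Gm9199 and Nufip1 of the same list had overlapping groups and ratios of 0.11 and 0.31, and the member of the lowered block was Trim52.

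Distal chromosome 15, another stretch of genes higher in these clones, was set beside them. It too had been found in an earlier look at these same data, so its values are a description without a test. Its 340 tested genes had a median ratio of 0.28, with 305 higher, and medians of 0.32, 0.28 and 0.27 in A6, B8 and C4. EB3-0 stood at 0.13 against the other two cultures there, and at -0.11 in the raised block of chromosome 14. The difference between the chromosomes was not tested.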

How the data were processed

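The authors mapped paired reads to mm9 with BWA, counted the exons of RefSeq genes with a custom pipeline and deposited RPKM values for the 6 libraries, all used here (0 columns of per-sample values were unused). Versions, strand handling and the treatment of multi-mapping reads were not given in the sources used here. Since the deposited values are RPKM, no count model was run. Reads were recovered from the table, as RPKM times cDNA length was a whole number of reads within 0.01 for 100% of values. 1 read in a cDNA of 2 kb was worth 0.0177 to 0.0199 RPKM.

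Ratios were formed on log2(RPKM + 0.5) over the genes that reached a mean of 1 RPKM, and the ratios of each clone were centred on the median of these genes. This scale understates the change of low genes. limma 3.58.1 (R 4.3.3, lmFit and eBayes with trend, no covariate, Benjamini-Hochberg adjusted p under 0.05) was fitted on all 11595 genes. It was also run on simulated data with equal noise in every library, without an outlying culture or a length trend. That run therefore cannot tell how the test behaves with the unequal spread of these libraries. Other steps used Python 3.11.15 with numpy 2.4.6. Per the study's methods the EB3 libraries are independent cultures of the line, and the Sim2 libraries are 1 culture per clone. Members that were outliers (over 3 robust SDs from the block median or on its other side), the most abundant, at the ends, most variable between clones, leading in a role list, or on the SIM2 list with at least 5 RPKM were named by rule, with Sim2. The genes next to the ends were part of that rule. Other named genes (called, left-out, low or extreme ones and examples of a list) were chosen after their values were seen. The members, boundaries, role lists and marker lists were chosen with earlier results of these data known. The role lists are broad, with Pibf1 under metabolism and transport, Tpt1 and Naa16 under transcription and RNA, and Kctd12 under protein turnover and trafficking. The list of genes near SIM2 sites came from the study's chromatin immunoprecipitation. GC content came from transcripts of an mm9 annotation, with values for 92 of 101 members and 96.1% of tested genes. Near-identical copies (at least 200 bases at 90% identity) were sought in mm9 with BLAST 2.17.0 for 97 members, and 18 had one. The 18 include Gm9199, Uchl3, Xpo7 and Diap3, whose levels are less certain for it. 19 members overlap another listed gene, and without stated strand such pairs cannot be told apart. The pair check of libraries used genes with at least 200 reads in the pair and 2 reads per fragment. Coordinates are 1-based.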

Additional observations from a re-analysis of the deposited data

How the results depend on the processing

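Both block medians kept their sign under every alternative tried: other pseudocounts (0.1 and 1 RPKM), filters, centring, trend removal, the 4 genes put back, EB3-1 and EB3-2 averaged, and each library left out. The raised median was 0.31 with no filter on low values and 0.50 with the trends with cDNA length and GC content removed, and the lowered median was -0.30 with no filter. Leaving out 1 library at a time gave 0.36 to 0.40 and -0.64 to -0.52. Counts of limma calls depended on the setting. Raised and lowered members called were 2 and 1 with no filter and 17 and 6 with the length trend removed. They were 22 and 6 with the length and GC trends removed and 1 and 1 in limma without the intensity trend. With EB3-1 and EB3-2 averaged they were 0 and 0. In that last fit 42 and 12 members passed an unadjusted p of 0.05, without a share over all tested genes to set beside them. Leaving out 1 library gave 0 to 24 raised and 0 to 10 lowered members called, the highest without EB3-0 and 0 in both blocks without A6, C4, EB3-1 or EB3-2. Over the whole table it gave 4 to 294 genes called higher and 2 to 400 called lower, again the highest without EB3-0. The cause was not tested. Outlier members of the raised block numbered 11 with no filter and 3 at a mean of at least 5 RPKM. Those of the lowered block numbered 7 with no filter, 0 at a mean of at least 5 RPKM, 0 with the length trend removed, 2 with the 4 genes put back, and 0 to 2 when 1 library was left out. Members of the lowered block with every clone below every EB3 culture numbered 9 at 5 RPKM, where fewer genes were tested. Among 45 named members, 10 of 611 alternative values had the other sign, in Snora31, Piwil2, Serp2, Mbnl2, Sox21 and Fgf17. No paired analysis was possible because the groups share no replicate numbers.

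10 members had under 100 reads in at least 1 library, which limits their precision. Of the 45 named members, 21 had a ratio that moved by over 1.5 times when at least 1 library was left out, so ratios near 0 are imprecise.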
